A study of Homo sapiens with 8 samples.

Results

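The chaperonin TRiC, also called CCT, was followed through the transcripts of its 8 subunit genes, TCP1, CCT2, CCT3, CCT4, CCT5, CCT6A, CCT7 and CCT8. They were taken by symbol from a table of 58884 genes, and each symbol matched 1 gene. C4-2 cells, a human castration-resistant prostate cancer line derived from LNCaP, received 1 µM DTHIB, also named E12, for 48 h in 4 libraries and the solvent DMSO for 48 h in 4 libraries. Both groups were grown in RPMI medium with serum. By its title the study regards DTHIB as acting directly against HSF1, a transcription factor that switches on heat shock genes, and the comparison asks how transcript levels differ after that treatment. Poly(A) RNA was sequenced, and the values are DESeq2-normalized counts, that is, read counts put on a common scale by a factor for each library.

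TRiC folds proteins that cannot reach their native state alone, above all actin and tubulin, inside stacked rings built of related subunits. Unfinished chains reach it partly through prefoldin, and ATP binding and hydrolysis by the subunits close a built-in lid over the chain. In the ring TCP1 sits between CCT4 and CCT3, and CCT2 between CCT5 and CCT4. Biochemical work on bovine and yeast TRiC places the tighter ATP binders, TCP1, CCT2, CCT4 and CCT5, on the side of the ring facing away from CCT3, CCT6A, CCT7 and CCT8.

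The libraries held 27229291 to 29159387 reads with DTHIB and 29499458 to 30926053 reads with DMSO. Each TRiC subunit had at least 7877 reads in every library. The 10 luminal prostate markers were all present, as the labelled cell line would have them, and their summed level ran from 273799 to 279835 normalized counts with DTHIB and from 225853 to 230742 with DMSO. Among these markers 6 rose, 3 fell and 1 did not pass the test, against 31% called higher and 33.7% called lower over all genes tested. Summed blood cell markers lay between 23.9 and 41.9 normalized counts with DTHIB and between 27.98 and 43.1 with DMSO, with HBB at 0 in all 8 libraries; within this list LYZ fell (4.34 with DTHIB and 15.99 with DMSO) and CD68 had a log2 fold change of 1.04 that did not pass. Summed basal epithelium markers lay between 26.0 and 31.3 with DTHIB and between 35.1 and 52.1 with DMSO, where KRT15 fell (6.09 with DTHIB and 20.3 with DMSO). Summed stromal markers ran from 1257 to 1494 with DTHIB and from 1034 to 1145 with DMSO, most of it COL1A1, which rose (0.42), whereas ACTA2 fell (39.0 with DTHIB and 77.6 with DMSO, log2 fold change -0.94) and DCN and LUM averaged under 1. Summed neuroendocrine markers ran from 85.4 to 93.9 with DTHIB and from 71.1 to 89.1 with DMSO, with INSM1 at 0; SYP rose (0.42) and NCAM1 fell (7.67 with DTHIB and 17.2 with DMSO). The part of these markers in the results was not tested. The labels do not say whether the 4 libraries of a group came from separate cultures, so the p-values below measure the spread between these libraries, which may be technical.

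All 8 TRiC subunit genes fell with DTHIB. Their log2 fold changes ran from -0.45 to -0.24, a loss of 26.8% for TCP1 and of 15.2% for CCT3, and in none of the 8 did a DTHIB library reach the lowest DMSO library. The test was limma on log2(normalized count + 1) with Benjamini-Hochberg adjustment over 17194 genes, and a gene was called when its adjusted p was under 0.05. The background of calls was high: 33.7% of all genes tested were called lower and 31% higher, 64.6% in all, while 30.8% had every DTHIB library below every DMSO library and 27.1% had the reverse. Count models on the recovered reads gave much the same background, with 64.7% of genes called by edgeR (32.4% lower) and 59.9% by DESeq2 (31.7% lower). The median log2 fold change was -0.36 over the 8 subunits and -0.0051 over all genes tested. From 13.3% (TCP1) to 25.7% (CCT3) of tested genes had a lower fold change than the named subunit, so many genes fell further than TRiC. In bulk RNA, a smaller fraction of cells with a transcript and less of it per cell cannot be told apart.

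**Figure D1:**
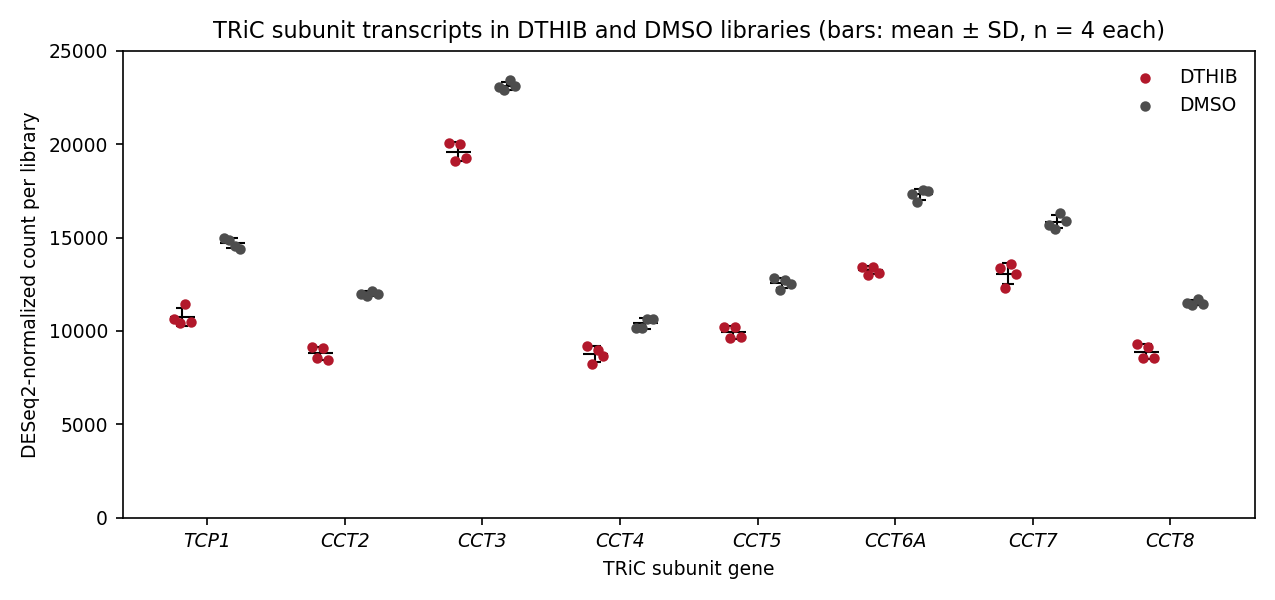
Normalized counts of the 8 TRiC subunit genes (vertical axis, starting at 0) in each DTHIB library (red, left) and each DMSO library (grey, right), with the mean and SD of 4 libraries. For every subunit the 4 DTHIB points lie below the 4 DMSO points; CCT3 is the highest in both groups, at 19606 with DTHIB and 23117 with DMSO.

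Among the subunits with the tighter ATP binding, TCP1, the founding member of the family and first known from the mouse t-complex, had 10659.9, 10433, 11456 and 10479.6 normalized counts with DTHIB, against 14981, 14887, 14534 and 14413 with DMSO. The highest of the DTHIB libraries, replicate 3, still lay below all of the DMSO libraries. TCP1 fell by 0.45 on the log2 scale (SE 0.031, limma adjusted p = 1.55e-09). CCT2, the beta subunit, had 9149, 8559, 9078 and 8463 normalized counts with DTHIB, against 11998.5, 11866, 12167 and 11969.5 with DMSO. It fell by 0.45 (SE 0.030, limma adjusted p = 9.42e-10). The DMSO libraries of CCT2 were tight, with an SD of 125 around a mean of 12000.2, and the DTHIB libraries were looser, with an SD of 351 around 8812.

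CCT4, the delta subunit, had 9204, 8209.9, 9005 and 8673 normalized counts with DTHIB, against 10153.9, 10183.9, 10620.3 and 10668 with DMSO. Here the groups came closest, since DTHIB replicate 1 lay not far below DMSO replicates 1 and 2. CCT4 fell by 0.25 (SE 0.034, limma adjusted p = 7.62e-06). CCT5, the epsilon subunit, whose mutation causes a hereditary sensory neuropathy in humans, had 10229.6, 9614, 10209.7 and 9665 normalized counts with DTHIB, against 12818, 12216, 12727 and 12518 with DMSO. It fell by 0.34 (SE 0.030, limma adjusted p = 2.62e-08), and no DTHIB library overlapped the DMSO range.

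On the other side of the ring, CCT3, the gamma subunit and the most abundant of the family, had 20058, 19112, 19988 and 19268 normalized counts with DTHIB, against 23056, 22884.5, 23418 and 23110.2 with DMSO. It fell by 0.24 (SE 0.027, limma adjusted p = 5.86e-07), the smallest fall of the 8 here and in 15 of 18 alternatives, with CCT4 the smallest in the other 3, which left out DMSO replicate 4 or DTHIB replicate 2 or used quantile normalization. CCT6A, the zeta subunit made in most tissues, had 13413, 13019.9, 13451 and 13097 normalized counts with DTHIB, against 17311, 16896, 17539.7 and 17501 with DMSO. It was the tightest subunit among DTHIB libraries, with an SD of 219 around 13245, and it fell by 0.39 (SE 0.026, limma adjusted p = 9.82e-10).

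CCT7, the eta subunit, had 13378, 12302, 13564 and 13051 normalized counts with DTHIB, against 15699, 15482.5, 16321 and 15876 with DMSO. DTHIB replicate 2 was the lowest, and the groups did not overlap. CCT7 fell by 0.28 (SE 0.032, limma adjusted p = 7.88e-07). CCT8, the theta subunit, had 9325, 8546.5, 9169 and 8539 normalized counts with DTHIB, against 11510.0, 11369, 11686 and 11440.4 with DMSO. It fell by 0.37 (SE 0.032, limma adjusted p = 2.08e-08). In the authors' deposited table, which holds their own DESeq2 comparison, the log2 fold changes of these genes ran from -0.45 for TCP1 to -0.24 for CCT3.

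The 8 subunits varied together between the DTHIB libraries. In 8 of 8 subunits DTHIB replicates 1 and 3 were both above replicates 2 and 4, a pattern present in 25.5% of all genes tested. The order counted is that of the subunits themselves, so 8 of 8 describes them and tests nothing. All genes tested also include genes of low counts. DTHIB replicates 1 and 3 had the larger normalized totals of all genes as well. Summed over the complex, the 8 genes held 93092 ± 3040 normalized counts with DTHIB and 117456 ± 1320 with DMSO (SD, n = 4 each), a loss of 20.7%. As a share of all reads, the complex took 0.324 ± 0.0069% with DTHIB and 0.397 ± 0.0021% with DMSO.

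Ratios between subunits of the same library are not touched by a scale factor per library, and most of them differed between the groups. Of 28 pairs compared by a two-sided exact permutation test over the 8 libraries, 18 changed with an adjusted p of 0.0444, from an exact p of 0.0286, the smallest that 4 against 4 libraries allow. How often ratios of other gene pairs separate was not examined, so this count is not shown to be particular to TRiC. Among single genes, 30.8% had every DTHIB library below every DMSO library and 27.1% had the reverse. TCP1 fell more than CCT3 (mean log2 ratio -0.87 ± 0.046 with DTHIB and -0.65 ± 0.037 with DMSO, SD, n = 4 each), and it also fell more than its other ring neighbour CCT4, with a difference of -0.20 in the log2 ratio. CCT2 fell more than its ring neighbours CCT4 (-0.20) and CCT5 (-0.11). These 2 subunits also fell more than CCT7, TCP1 fell more than CCT5, and CCT2 fell more than CCT3, CCT6A and CCT8. CCT3 and CCT4 fell less than CCT5, CCT6A and CCT8, and CCT7 fell less than CCT6A and CCT8. Each of the 18 differences kept its direction with any 1 library left out. That was bound to happen, because the groups did not overlap in these 18 pairs. Quantile normalization, which is not a scale factor per library, did move ratios: 14 of the 18 pairs again had the smallest exact p in the same direction, but the smallest adjusted p was then 0.05, so none of the 28 passed. Under it the difference for TCP1 to CCT3 was -0.13, and CCT3 no longer stood apart from CCT5 (0.0087) and CCT8 (0.035).

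Some pairs kept close ratios. The log2 ratio of TCP1 to CCT2 was 0.29 ± 0.049 with DTHIB and 0.29 ± 0.036 with DMSO, a difference of -0.0055 (exact permutation p = 0.886, adjusted p = 0.886). For CCT3 to CCT4 it was 1.16 ± 0.041 with DTHIB and 1.15 ± 0.030 with DMSO (exact permutation p = 0.714, adjusted p = 0.741), and after quantile normalization the difference was -0.085. CCT6A to CCT8 differed by -0.014 (exact permutation p = 0.6, adjusted p = 0.646). A p above the threshold does not show that these pairs moved alike. The order of the fold changes did not follow the ATP-binding sides of the ring, since TCP1 and CCT2 stood at one end and CCT4, of the same side, stood beside CCT3 at the other.

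**Figure D2:**
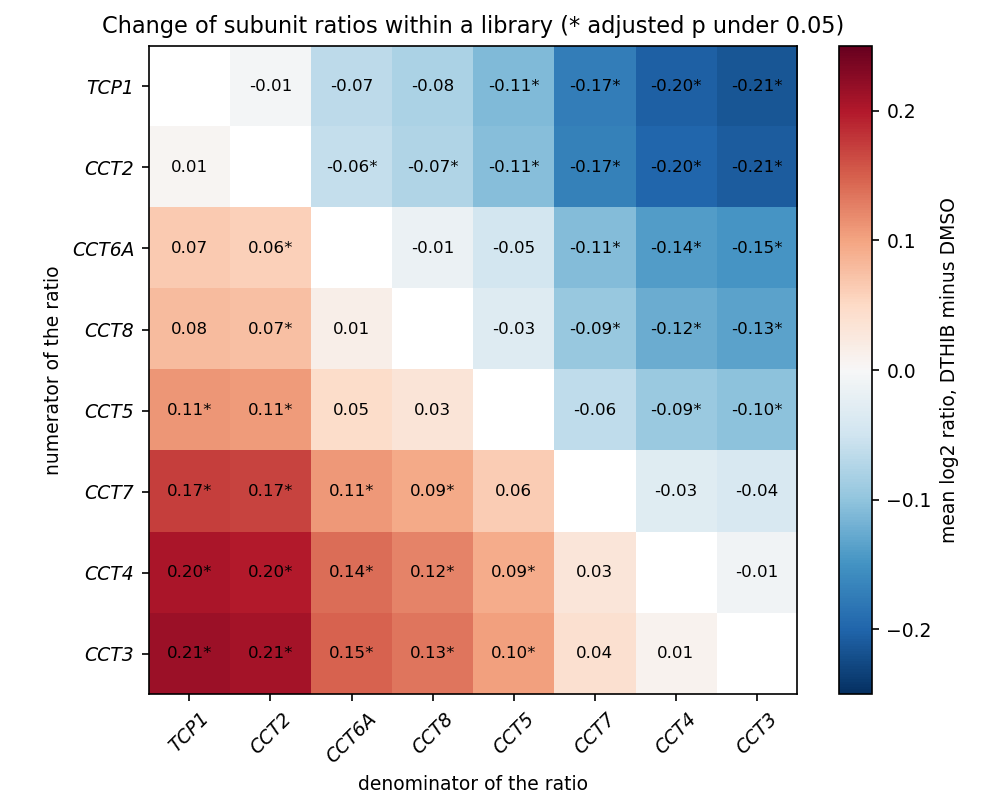
Difference between DTHIB and DMSO libraries in the mean log2 ratio of 2 TRiC subunits (row over column), ordered from the largest to the smallest fall; an asterisk marks an adjusted p under 0.05 by exact permutation. Blue cells are ratios lower with DTHIB: TCP1 and CCT2 against CCT3 reached -0.21, and TCP1 against CCT2 stayed near 0.

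Levels can be compared between genes only per length. Per kilobase of the joined exons of each gene, CCT3 was highest at 4880 ± 121 normalized counts with DTHIB and 5753 ± 55.4 with DMSO, and CCT5 was lowest at 1700.5 ± 57.5 with DTHIB and 2153 ± 45.8 with DMSO. Between them, in falling order of the DTHIB levels, came CCT7 at 3641 with DTHIB and 4412 with DMSO, CCT6A at 3395 with DTHIB and 4438 with DMSO, CCT4 at 3100.1 with DTHIB and 3677 with DMSO, and CCT8 at 2662 with DTHIB and 3442 with DMSO. TCP1 followed at 2182.4 with DTHIB and 2983 with DMSO, and CCT2 at 2039 with DTHIB and 2777 with DMSO. CCT7 and CCT6A overlapped in both groups, and TCP1 and CCT2 overlapped with DTHIB. With the length of the principal transcript in place of the joined exons, CCT3 stayed highest (9119 with DTHIB) and CCT5 lowest (2702 with DTHIB), while CCT4 moved next to CCT5 at 3481 with DTHIB.

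The share of each subunit in the summed level per kilobase shifted by at most 1.27 percentage points. CCT3 took 20.7 ± 0.196% with DTHIB and 19.4 ± 0.062% with DMSO, and CCT4 13.1 ± 0.277% with DTHIB and 12.41 ± 0.242% with DMSO. TCP1 took 9.25 ± 0.266% with DTHIB and 10.1 ± 0.279% with DMSO, and CCT2 8.64 ± 0.126% with DTHIB and 9.37 ± 0.032% with DMSO. The groups did not overlap for these 4 genes nor for CCT6A and CCT8, which held a smaller share with DTHIB, and they overlapped for CCT5 and CCT7. The gap was thin for CCT8, with a highest DTHIB share of 11.52% and a lowest DMSO share of 11.53%. It was also thin for CCT4, with a lowest DTHIB share of 12.77% and a highest DMSO share of 12.70%. Shares of a whole are tied, so a larger share of some subunits requires a smaller share of others. How often shares within other gene sets separate was not examined. The ratio of the most to the least abundant subunit was 2.87 ± 0.027 with DTHIB and 2.67 ± 0.045 with DMSO (SD, n = 4 each). Both the shares and this ratio rest on the length of the joined exons and would differ with that of the principal transcript.

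On the GRCh38 build the genes lie apart on 7 chromosomes, with a pair on chromosome 2: TCP1 at chr6:159778498-159789749, CCT2 at chr12:69585334-69601570, CCT3 at chr1:156308968-156367873, CCT4 at chr2:61868089-61888804, CCT5 at chr5:10249921-10266412, CCT6A at chr7:56051630-56063989, CCT7 at chr2:73233420-73253021 and CCT8 at chr21:29055805-29073797 (GENCODE release 29, joined span of all transcripts). The 250 bases before the RefSeq start site (GRCh38.p14) were read for 7 of the 8 genes, in 9 windows, as CCT2 and CCT4 have a second start. All 9 of these RefSeq starts lie inside the GENCODE spans just given, by 125 to 888 bases apart from CCT3, where an outlying transcript puts it 29581 bases inside, so the windows can hold transcribed bases of longer transcripts. The heat shock element, which HSF1 binds, is made of inverted nGAAn units, and as a pair of units GAANNTTC was found, on either strand, in the windows of TCP1 and of the second start of CCT2, against 5.78% of all 35116 windows. The opposite arrangement, TTCNNGAA, was in none of the 9, against 6.62% of all windows. The 30 bases around both matches, with the GAANNTTC letters in capitals, are shown because TCP1 and CCT2 are the subunits with the largest falls, TCP1 or CCT2 being the lowest in each of 18 alternatives. The TCP1 stretch is chr6:159789815-159789844, minus strand, with the match at chr6:159789826-159789833. That match begins 231 bases before the RefSeq start of TCP1 and lies in the span of the neighbouring gene MRPL18, which starts at position 159789812 in GENCODE. The CCT2 stretch is chr12:69585789-69585818, plus strand, with the match at chr12:69585800-69585807. It begins 89 bases before the second RefSeq start, which itself lies 555 bases inside the GENCODE span of CCT2.
TCP1: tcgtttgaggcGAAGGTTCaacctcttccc
CCT2: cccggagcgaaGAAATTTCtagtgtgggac

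CGGAAG, the core of the site of ETS factors, was in windows of TCP1, CCT2, CCT5 and CCT7 on either strand, against 16.5% of all windows, and CCAAT, the box bound by NF-Y, in windows of TCP1, CCT2, CCT3 and CCT8, against 32% of all windows. GGGCGG, a GC box, was in windows of TCP1, CCT2, CCT3 and CCT8, against 42.6% of all windows. CACGTG, an E-box that MYC and MAX bind, and TGACGTCA, the cyclic AMP response element, were in none, against 6.34% and 1.65% of all windows. A match is a run of letters, not a shown binding site. The windows overlap annotated exons of other transcripts over much of their length. The stretches outside all annotated exons are given for TCP1 (chr6:159789750-159789811, minus strand), where it fills the whole gap to the neighbouring gene MRPL18, and for CCT3 (chr1:156338466-156338502, minus strand), at the other end of the order of falls. The longest such stretches of CCT2 (125 bases), CCT7 (178 bases) and CCT8 (101 bases) held neither CGGAAG nor CCAAT. The matches named above for these genes lie elsewhere in their windows. In CCT3 the 2 CCAAT matches of the window lie outside the stretch given. A link between motifs and falls was not tested. Capitals mark CGGAAG or CCAAT, here read on the other strand.
TCP1: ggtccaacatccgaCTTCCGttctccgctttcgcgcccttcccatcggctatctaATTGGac
CCT3: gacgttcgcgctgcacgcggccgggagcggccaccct

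Several TRiC genes share their start region with a gene on the opposite strand. Distances in what follows are between the outermost GENCODE starts. MRPL18, a protein of the mitochondrial ribosome whose start lies 63 bases from that of TCP1, had 1726, 1597, 1611 and 1695 normalized counts with DTHIB, against 2301, 2386, 2285 and 2255 with DMSO. It fell by 0.48 (SE 0.036, limma adjusted p = 3.75e-09), next to 0.45 for TCP1. PRADC1, whose start lies 182 bases from that of CCT7, fell by 0.96 (405 ± 31.0 with DTHIB and 787 ± 47.6 with DMSO, limma adjusted p = 5.52e-10), next to 0.28 for CCT7. The neighbours of CCT4 and CCT5 did not pass the test: COMMD1, with starts 80 bases apart, had a log2 fold change of 0.05 (limma adjusted p = 0.399), and ATPSCKMT, with starts 24 bases apart, one of -0.03 (limma adjusted p = 0.527).

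CCT6A and PSPH, the last enzyme of serine synthesis, start 26 bases apart and went in opposite directions. PSPH had 2811, 2763, 2865 and 2668 normalized counts with DTHIB, against 1830.2, 1699, 1813 and 1848 with DMSO, and rose by 0.63 on the log2 scale (SE 0.036, limma adjusted p = 1.07e-10). No DTHIB library of PSPH reached down to the DMSO range. Of the 17 genes within 1000 bases of a subunit or overlapping one, 9 were tested, of which 3 fell, 3 rose and 3 did not pass, which is near the background of 33.7% lower and 31% higher over all genes. SUMF2, beyond the end of CCT6A, rose (0.13), and so did ENSG00000231125 in the span of CCT8 (0.74), a call at the limit of testing that was lost in 10 alternative settings. TSACC, which overlaps CCT3, had 0.09 and did not pass. Besides MRPL18 and PRADC1, ACAT2, a cytosolic thiolase that overlaps the end of TCP1 by 558 bases on the opposite strand, fell by 0.93 (647 ± 63.7 with DTHIB and 1228 ± 49.0 with DMSO, limma adjusted p = 4.22e-10). The sources used here do not say whether reads were counted by strand, so reads in such overlaps cannot be assigned to either gene with certainty.

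Close copies of the subunits were measured too. CCT6B, the paralogue of CCT6A known for its expression in testis, had 91.7, 100.1, 103 and 106 normalized counts with DTHIB, against 62.3, 65.1, 70.4 and 75.2 with DMSO. Unlike the 8 subunits it rose, by 0.55 (SE 0.12, limma adjusted p = 5.15e-04), with no overlap between groups and at under 1% of the normalized count of CCT6A. Of 14 annotated pseudogenes of the subunits, 4 reached the limit for testing. CCT6P1 rose by 0.42 (248 ± 31.6 with DTHIB and 184 ± 8.23 with DMSO, limma adjusted p = 7.50e-04) and CCT6P3 rose by 0.39 (156 ± 10.7 with DTHIB and 119 ± 11.04 with DMSO, limma adjusted p = 0.00247). CCT8P1 fell by 0.23 (157 ± 9.86 with DTHIB and 184 ± 17.5 with DMSO, limma adjusted p = 0.0364), with groups that overlapped and a call lost in 6 alternative settings. CCT5P1 did not pass (log2 fold change 0.30, limma adjusted p = 0.355).

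Sequence shared with other genes was limited in the subunits, counted as 50-base stretches of their annotated transcripts. CCT6A shared 3.52% of its stretches with CCT6P3 and CCT8 shared 4.64% with CCT8P1, so counts of these pseudogenes are uncertain, while TCP1 shared 5.27% with other genes on its own strand. On the opposite strand TCP1 shared 6.54% with ACAT2 and CCT5 shared 28.2% with the antisense gene AC012640.4, which matters only if reads were counted without strand. CCT7 shared none.

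**Figure D3:**
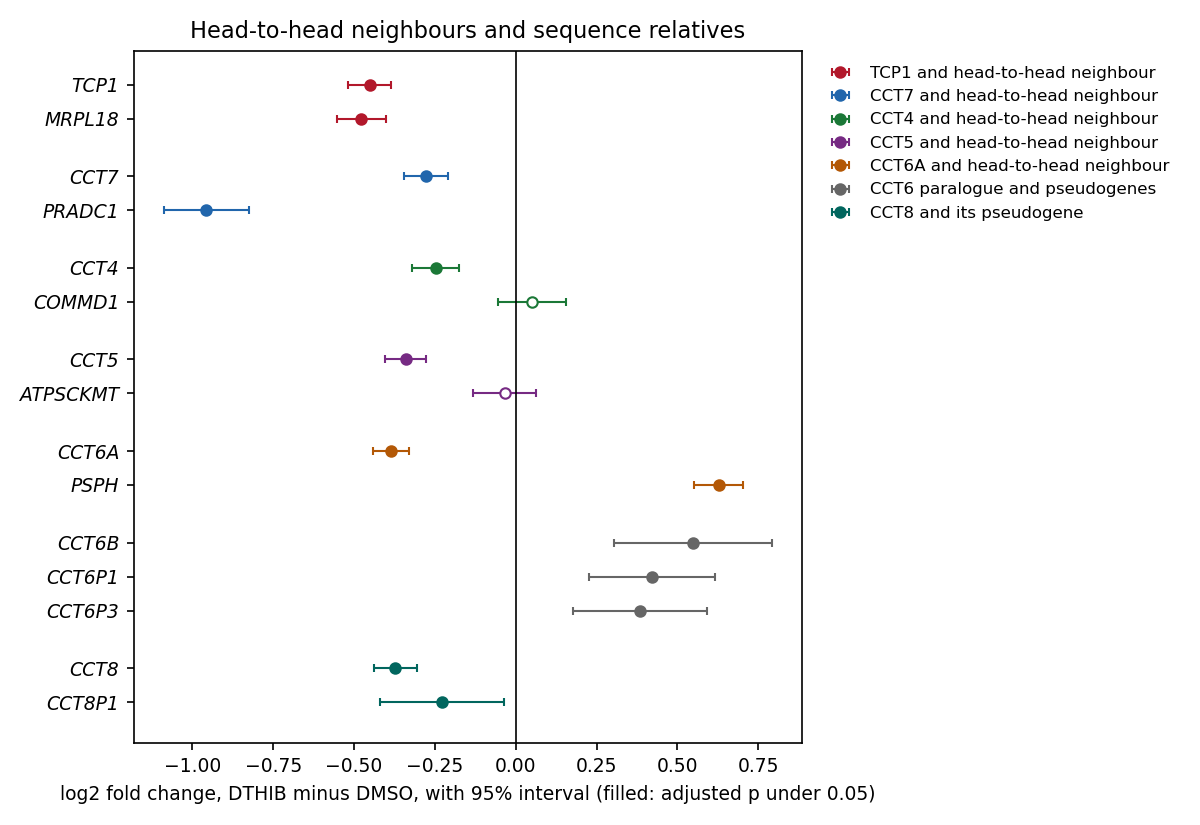
Log2 fold change (DTHIB minus DMSO, horizontal axis, with the 95% interval) of TRiC genes and the gene that starts beside them on the opposite strand, followed by close copies of CCT6A and CCT8. Filled points passed an adjusted p of 0.05: MRPL18 lies beside TCP1, whereas PSPH at 0.63 lies on the other side of 0 from CCT6A at -0.39.

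Genes that work with TRiC were mixed. Of 20 listed partners 17 were tested, and 10 fell, 4 rose and 3 did not pass, with a median log2 fold change of -0.18. Prefoldin, which hands unfolded actin and tubulin to TRiC, had 5 tested subunits, of which 3 fell. VBP1, a prefoldin subunit that also binds the von Hippel-Lindau protein, had 2661, 2538, 2887 and 2513 normalized counts with DTHIB, against 3519, 3496, 3435 and 3397 with DMSO, and fell by 0.39 (SE 0.039, limma adjusted p = 1.81e-07). PFDN1 and PFDN2 also fell, with log2 fold changes of -0.27 and -0.22. PFDN5, a prefoldin subunit also known to bind MYC, went the other way: it had 3911, 3587, 3810.0 and 3986 normalized counts with DTHIB, against 3230.4, 3203, 3273 and 3032 with DMSO, and rose by 0.26 (SE 0.036, limma adjusted p = 6.80e-06). PFDN4 had a log2 fold change of 0.07 and did not pass (0.15, called, under quantile normalization), and PFDN6, which has annotated copies outside the primary assembly, was near 0 in all libraries and was not tested.

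Of the prefoldin-like complex, PDRG1 fell by 0.39 (995 ± 52.8 with DTHIB and 1305 ± 41.3 with DMSO), UXT rose by 0.10, a call lost in 9 alternative settings, and URI1 had -0.08 and did not pass, though it did in 4 alternative settings (-0.10 to -0.08). The phosducin-like proteins, which assist TRiC in folding G protein beta subunits and other chains, fell in 3 of 3 tested, against 33.7% called lower over all genes. Their log2 fold changes were -0.25 for PDCL, -0.22 for PDCL3 and -0.18 for TXNDC9. Tubulin cofactors take tubulin from TRiC and join it into dimers. Of 6 tested, ARL2, the GTPase that works with TBCD and TBCE, fell (-0.22), as did TBCC (-0.20) and TBCD (-0.16, a call lost at -0.07 under quantile normalization), whereas TBCB rose (0.12) and TBCA had -0.05 and did not pass. TBCE rose by 1.09 at 73.1 ± 9.38 normalized counts with DTHIB and 34.3 ± 7.47 with DMSO, and its count is uncertain because GENCODE release 29 gives this symbol to a pair of overlapping genes.

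**Figure D4:**
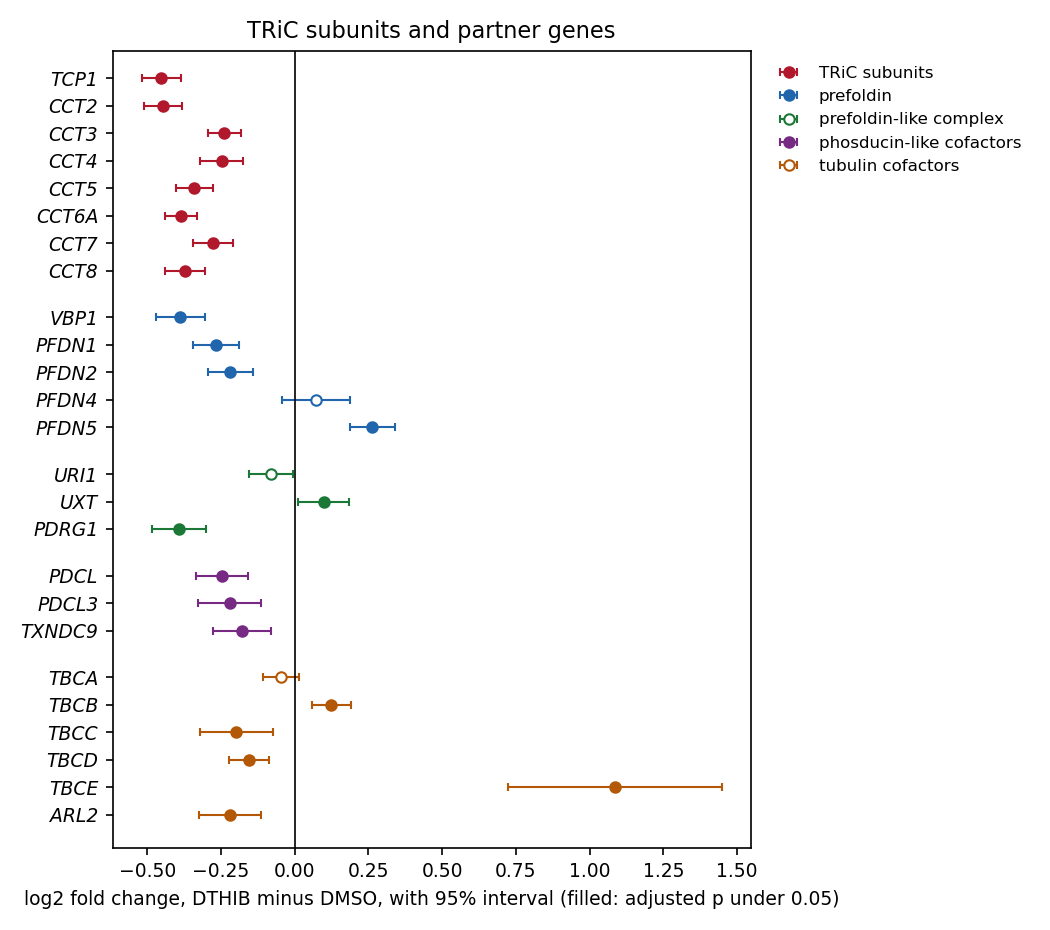
Log2 fold change (DTHIB minus DMSO, horizontal axis, with the 95% interval) of the 8 TRiC subunits and of 17 partner genes, grouped by complex; filled points passed an adjusted p of 0.05. The 8 subunits lie between -0.45 and -0.24, while partners lie on both sides of 0, from PDRG1 at -0.39 to TBCE at 1.09.

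Genes of proteins that TRiC folds moved in both directions. Of 25 tested clients 17 fell, 2 rose and 6 did not pass, with a median log2 fold change of -0.30. Over all genes tested, 33.7% were called lower and 31% higher. Among the actins, ACTB, the cytoplasmic beta actin, had 67361, 61989, 66413 and 65245 normalized counts with DTHIB, against 86265, 88518, 89981 and 92229 with DMSO. It fell by 0.45 (SE 0.033, limma adjusted p = 2.35e-09), the size of the fall of TCP1. ACTG1 fell (-0.36), as did ACTR2, an actin-related subunit of the Arp2/3 complex (-0.23), while ACTR3 had -0.09 (limma adjusted p = 0.0713) and passed in 4 alternative settings.

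Of 10 tested tubulin genes 8 fell, against 33.7% called lower over all genes tested. Among these 8, 7 had a log2 fold change below that of every TRiC subunit. TUBA1B, an alpha tubulin, had 4864, 4318, 5055 and 4219 normalized counts with DTHIB, against 12910.2, 12938, 13725 and 12774 with DMSO, and fell by 1.51 (SE 0.048, limma adjusted p = 4.95e-14). TUBB4B, a beta tubulin, had 12326, 11546, 12646.5 and 11996 normalized counts with DTHIB, against 25564, 25099, 26409 and 25117 with DMSO, and fell by 1.08 (limma adjusted p = 1.81e-14). TUBA1A (-1.46), TUBA4A (-0.97), TUBG1 (-0.91), TUBA1C (-0.67), TUBB6 (-0.48) and TUBB2A (-0.29) fell, and TUBB3 and TUBB4A did not pass. TUBB, which has annotated copies outside the primary assembly, was near 0 and not tested.

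Clients with WD40 propellers and other folds were divided. CDC20, the mitotic activator of the anaphase-promoting complex, had 1613, 1379, 1768 and 1483 normalized counts with DTHIB, against 4396, 4376, 4617 and 4281 with DMSO, and fell by 1.51 (SE 0.056, limma adjusted p = 3.83e-13). WRAP53, needed for telomerase assembly, fell (-1.04), as did CCNE1, the cyclin of S phase entry (-0.80), HDAC3, a histone deacetylase (-0.30), FZR1 (-0.14, a call lost at -0.06 under quantile normalization) and GNB2 (-0.14). MLST8, a WD40 subunit of the mTOR complexes, had 4990, 4818, 5114 and 4965 normalized counts with DTHIB, against 3420.1, 3419, 3564 and 3571 with DMSO, and rose by 0.51 (SE 0.030, limma adjusted p = 1.64e-10). STAT3 rose by 0.14, and GNB1, GNB5 and VHL did not pass, GNB1 (-0.09) and VHL (0.10) being called under quantile normalization.

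**Figure D5:**
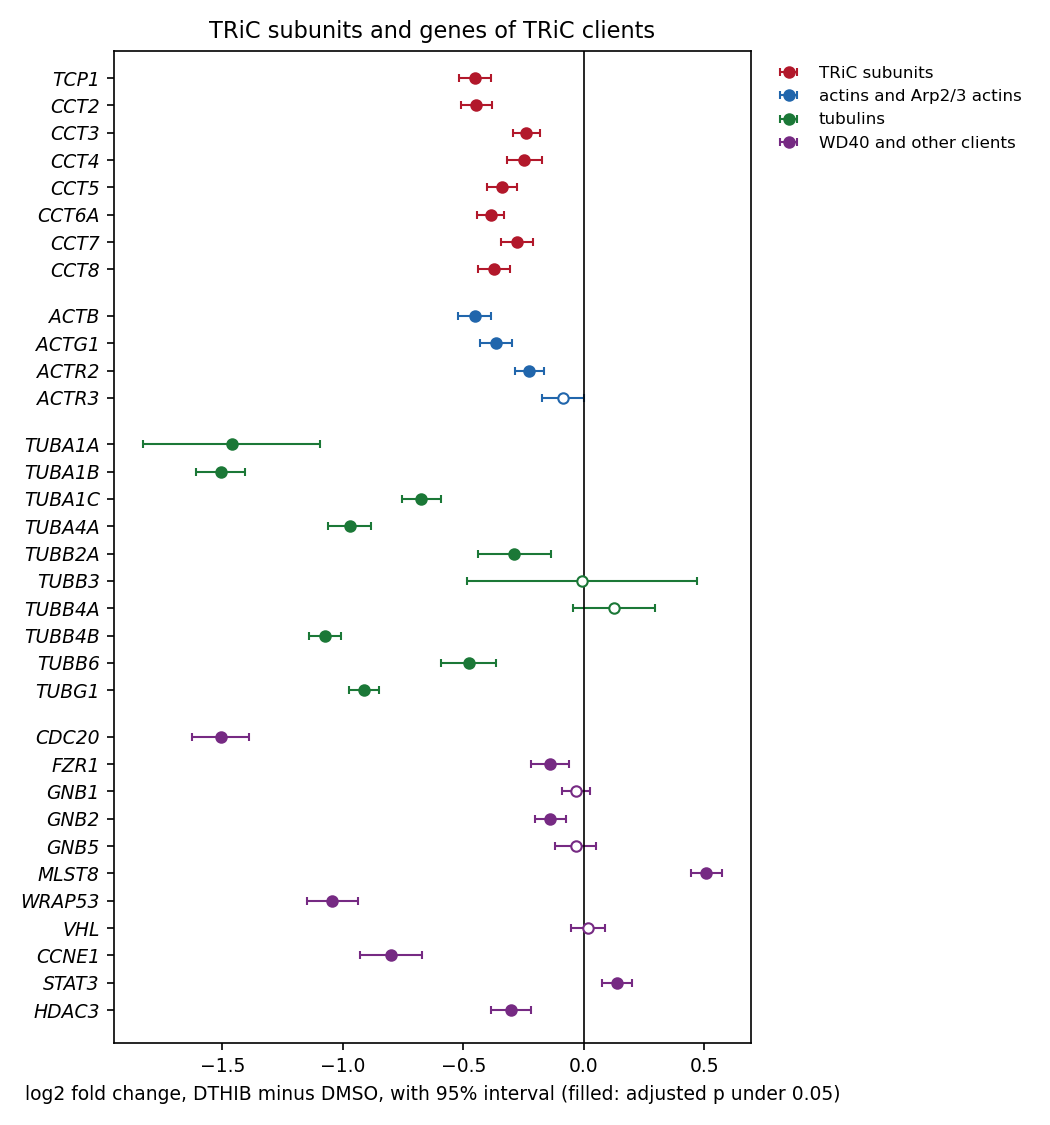
Log2 fold change (DTHIB minus DMSO, horizontal axis, with the 95% interval) of the 8 TRiC subunits and of 25 genes of TRiC clients in 3 classes; filled points passed an adjusted p of 0.05. Tubulins reach -1.51, the actins lie in the range of the subunits or nearer 0, and MLST8 stands at 0.51.

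Other chaperonin genes ranged from no call to falls within the TRiC range. HSPD1, the mitochondrial chaperonin, had 42337, 40174, 41835 and 40462 normalized counts with DTHIB, against 43623, 43436, 41829 and 42115 with DMSO. The groups overlapped, and its log2 fold change of -0.05 did not pass (95% interval -0.11 to 0.01, limma adjusted p = 0.111), an interval that lies wholly above those of the 8 TRiC genes. Its lid HSPE1 fell by 0.10 (limma adjusted p = 0.0220), a call lost in 6 alternative settings. Among the chaperonin-like genes of Bardet-Biedl syndrome, MKKS fell by 0.33 (703 ± 40.1 with DTHIB and 884 ± 47.3 with DMSO), BBS10 fell (-0.11), a call lost in 6 alternative settings, and BBS12 did not pass. Of 14 cytosolic chaperone genes that HSF1 is known to bind, 14 fell, against 33.7% called lower among all genes tested. Their median log2 fold change was -0.46, with a range from -0.85 for DNAJB4 to -0.10 for HSP90AB1, which spans all 8 TRiC genes. The list was chosen with earlier results of these data known, so 14 of 14 is a description and not a test. The part of HSF1 in these falls was not tested.

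Across the 8 libraries the genes whose levels most resembled the mean of the TRiC subunits, by Pearson's r of log2 values, were ISG20L2, an exonuclease of ribosome maturation (0.9994), CAND1, which exchanges cullin ligase adaptors (0.9989), STK39, a kinase of ion transport (0.9988), WDR82, a subunit of histone methylation complexes (0.9987), and PAPOLA, the poly(A) polymerase (0.9986). ISG20L2 fell to 2868 ± 110.2 normalized counts with DTHIB, against 3733 ± 41.8 with DMSO (SD, n = 4 each). Such likeness was common, because any gene with separated groups shares most of the pattern: 2452 of 11882 genes with a mean of at least 100 normalized counts reached an r of 0.95. These values describe 8 libraries that differ mainly by treatment.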

How the data were processed

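RNA-seq libraries of C4-2 cells, 4 with DTHIB and 4 with DMSO, were assigned to groups from the treatment label. For the build GRCh38 the submitters' processing notes name DESeq2 2.11.40.2, featureCounts 1.6.3, StringTie 1.3.4, HISAT2 2.1.0 and Trimmomatic 0.36.5. Settings, strand and annotation release are not given there. The authors deposited a normalized count (a signal) per gene and library, and a table of the mean normalized count, log2 fold change, standard error, Wald score, p-value and adjusted p-value of their own comparison.

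Values were tested as log2(normalized count + 1) with limma 3.58.1 (eBayes with trend, two-sided, R 4.3.3) over 17194 of 58884 genes with a mean of at least 10, with Benjamini-Hochberg adjustment over all of them. Whole reads were recovered from the steps of the values within a tolerance of 0.01 and used for edgeR 4.0.16 and DESeq2 1.42.0 as alternatives, which called 11130 and 10294 genes, against 11110 by limma. Chi-square per gene between libraries was 2.39 to 5.21 within groups and at least 51.7 between them, so no library was a copy of another. Scripts were tested on simulated data.

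The subunits and the gene lists were chosen with earlier results of these data known. Named genes were the 8 subunits, their paralogues, pseudogenes and neighbours within 1000 bases, the members of the lists, and the 5 most similar genes. Alternatives were pseudocounts of 0.5 and 5, no filter, a mean of at least 50, TMM, quantile normalization, edgeR, DESeq2, a replicate block and leaving out each library; total-count scaling, and the subunit ratios under quantile normalization or without each library, were added after seeing the data.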

Additional observations from a re-analysis of the deposited data

Results flagged for a closer look

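In 107 named genes, 214 groups of 4 libraries were screened for a library far from the other 3. These genes were members of the lists and others such as neighbours and pseudogenes of the subunits. The measure was the gap to the nearest library over the whole range of the group, against Dixon's 95% critical value. Chance passes about 1 in 20 groups, and 6 of 214 passed. None of the 8 TRiC subunit genes was among them. BBS12 had 72.9 normalized counts in the third DTHIB library and 63.8 to 64.6 in the other DTHIB libraries (gap share 0.913). CCNE1 had 545 in the third DTHIB library and 457 to 467 in the others (gap share 0.892). CCT6P1 had 171 in the fourth DMSO library and 187.6 to 188.1 in the others (gap share 0.966). STAT3 had 5702 in the third DMSO library and 5417 to 5453 in the others (gap share 0.874). SUMF2, which lies beyond the end of CCT6A, had 5272 in the second DMSO library and 4949 to 4991 in the others (gap share 0.871). TUBB4A had 255.5 in the second DMSO library and 230.8 to 232.5 in the others (gap share 0.931).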

How the results depend on the processing

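All 8 TRiC subunit genes were called lower in each of 18 alternatives, and no call turned into the opposite call. Values that did not pass could change sign, as for ATPSCKMT (-0.03, and 0.04 under quantile normalization). Their median log2 fold change of -0.36 moved by more than the spread between libraries under quantile normalization (-0.32) and total-count scaling (-0.32), and of the subunit ratios 18 passed as reported and 0 after quantile normalization, an alternative for the ratios added after seeing the data, where 16 had the smallest exact p and an adjusted p of 0.05; the cause was not tested. Scaling moved the median of all genes by at most 0.04. Leaving out 1 library gave medians from -0.37 to -0.34. Deviations of same-numbered libraries correlated at -0.072 to 0.014, and those of different-numbered libraries at -0.073 to 0.084. No pairing by replicate number was seen, but the labels do not say whether libraries were paired, and these correlations cannot settle it. With a replicate block the median of the subunits was -0.36, with 8 subunits called lower. Among the partners 9 to 11 were called lower and 3 to 5 higher, and among the clients 17 to 18 lower and 2 to 3 higher. Over all genes, the 18 alternatives called 5135 to 5929 lower and 4258 to 5959 higher, against 33.7% and 31% of genes as reported. The number tested was 17194, apart from 13217 with a mean of at least 50 and 35724 with no filter. For the other named genes 1715 values kept their call, 44 lost it and 15 gained it. Low counts limit CCT6B, TBCE and the pseudogenes.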
